A study of Mus musculus with 12 samples.

Results

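The mitochondrial ribosome makes the few proteins that the mitochondrial genome still encodes, all of them subunits of the respiratory chain and ATP synthase. Its protein subunits are encoded in the nucleus, made in the cytosol, imported and assembled on ribosomal RNA of mitochondrial origin into a small subunit, which reads the mRNA, and a large subunit, which forms the peptide bond. Some of these proteins descend from bacterial ribosomal proteins and others are found only in mitochondria. The genes of these proteins were taken as the symbols that begin with Mrpl or Mrps followed by a number, and each was represented by the probe set with 1 symbol and the highest mean signal over all arrays. They numbered 73 of the 17097 genes measured, 46 named for the large subunit (Mrpl) and 27 for the small subunit (Mrps). RefSeq lists 78 protein-coding genes with such symbols, and Mrpl22, Mrpl45, Mrpl51, Mrps18c and Mrps28 were not analysed here. By structure, the proteins of Mrps30 and Mrps18a sit in the large subunit of the mammalian mitochondrial ribosome, and that of Mrps36 is a part of the 2-oxoglutarate dehydrogenase complex.

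RNA came from CT26, a mouse colon carcinoma line grown in culture, with 3 Affymetrix arrays in each of 4 groups. Cells under short-term starvation (STS) spent 48 hours in a medium of 0.5 g/L glucose with 1% serum. Cells of the OXP group received oxaliplatin, a platinum drug that damages DNA, in complete medium, and STS+OXP cells received both. The labels give 10 µM OXP added 24 hours after the change of medium, whereas figure legends of the study give another concentration. Control cells (CTR) spent the same time at 1.0 g/L glucose with 10% serum and received no drug. All cells are 1 line, and no source tells whether replicates were grown separately, so the p-values measure the spread between these samples, which may be technical.

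Values are log2 signals of the RMA method, and a difference of 1 is a 2-fold change. A gene was called higher or lower where the p of limma, adjusted by Benjamini-Hochberg across the 17097 genes, was under 0.05. The epithelial markers Epcam, Krt20 and Cdx2 lay above 22 control probe sets that match no mouse transcript in every group, while Cdh1, Krt18, Krt19 and Vil1 did so in none. Of 5 macrophage markers, Cd14 was called higher in OXP (1.17) and STS+OXP (0.72) and Cd68 in OXP (1.47, from replicates 1 and 3), Ptprc and Csf1r lay above the control probe sets in no group, and the summed signal of the 5 (log2) was 7.32 to 7.45 in STS, 8.04 to 8.66 in OXP and 7.93 to 8.03 in STS+OXP, against 7.35 to 7.53 in CTR. Of 5 fibroblast markers, Dcn was higher in OXP (1.06) and STS+OXP (0.91), and Col1a1 and Col1a2 in STS (0.34 and 0.56), while Thy1 lay above the control probe sets in no group, and their summed signal was 7.36 to 7.55 in STS, 7.10 to 7.45 in OXP and 7.11 to 7.49 in STS+OXP, against 6.87 to 7.14 in CTR. Of 4 lymphocyte and 4 endothelium markers measured, 0 were called higher against CTR, and Cd3g, Pecam1, Cdh5 and Tek lay above the control probe sets in no group. The lymphocyte markers above the control probe sets numbered 3 in CTR and STS+OXP and 2 in STS and OXP. Called lower were 1 lymphocyte marker in STS and 1 endothelium marker in STS+OXP. OXP replicate 1 stood apart, since its Gapdh probe set for the 3′ end read 3.85 log2 units above that for the 5′ end, while on the remaining 11 arrays this difference was -0.12 to 0.28. The corresponding difference for Actb was 0.97 to 2.33 on the 6 arrays with OXP and 0.84 to 0.92 on the 6 others, and that for Gapdh was higher on all 9 treated arrays than on the CTR arrays (0.01 to 0.04 in STS, 0.02 to 3.85 in OXP and 0.11 to 0.28 in STS+OXP, against -0.12 to -0.02 in CTR). This sign of RNA quality thus moved with the treatments, as did some of the macrophage and fibroblast markers above, and their part in the results below was not tested. Over the 73 genes, OXP replicates 2 and 3 lay nearer to the STS+OXP arrays, with mean root mean square differences of 0.155 and 0.192, than to their own group, at 0.224 and 0.221, although the distance between them was 0.166. Counts for OXP are therefore also given without replicate 1, 2 or 3 and, as a choice made after seeing the data, without replicates 1 and 2 together. Mrpl47, which belongs to the large subunit, did not exceed the control probe sets in any group, and the other 72 genes did in at least 1 group.

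A part of the mitochondrial ribosome genes had a lower signal in OXP and STS+OXP, a smaller part in STS, and the falls in OXP and STS+OXP were led by Mrpl12, Mrps22 and Mrps25. STS gave 9 of 73 genes called lower and 0 called higher (at an unadjusted p under 0.05, 18 were lower and 3 higher, against 13.2% and 14% of all genes). OXP gave 22 lower and 7 higher, and STS+OXP gave 29 lower and 2 higher, all against CTR. Over all genes, 6.74% were called lower under STS, 13.9% under OXP and 14.2% under the combination, and 9.75%, 17.5% and 16.4% were called higher. The share of the 73 genes called lower was thus 12.3% under STS, 30.1% under OXP and 39.7% under the combination, and the share called higher was 0%, 9.59% and 2.74% in the same order. Calls were more frequent at higher signal, and all but Mrpl47 of the 73 genes lay above the median signal. Among the 8548 genes above it, 11.6% were lower and 18.2% higher in STS, 23.6% lower and 31.7% higher in OXP, and 25.2% lower and 29.5% higher in STS+OXP. Against these brighter genes, the share called lower was close in STS, while the share called higher was smaller in all 3 comparisons.

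**Figure D1:**
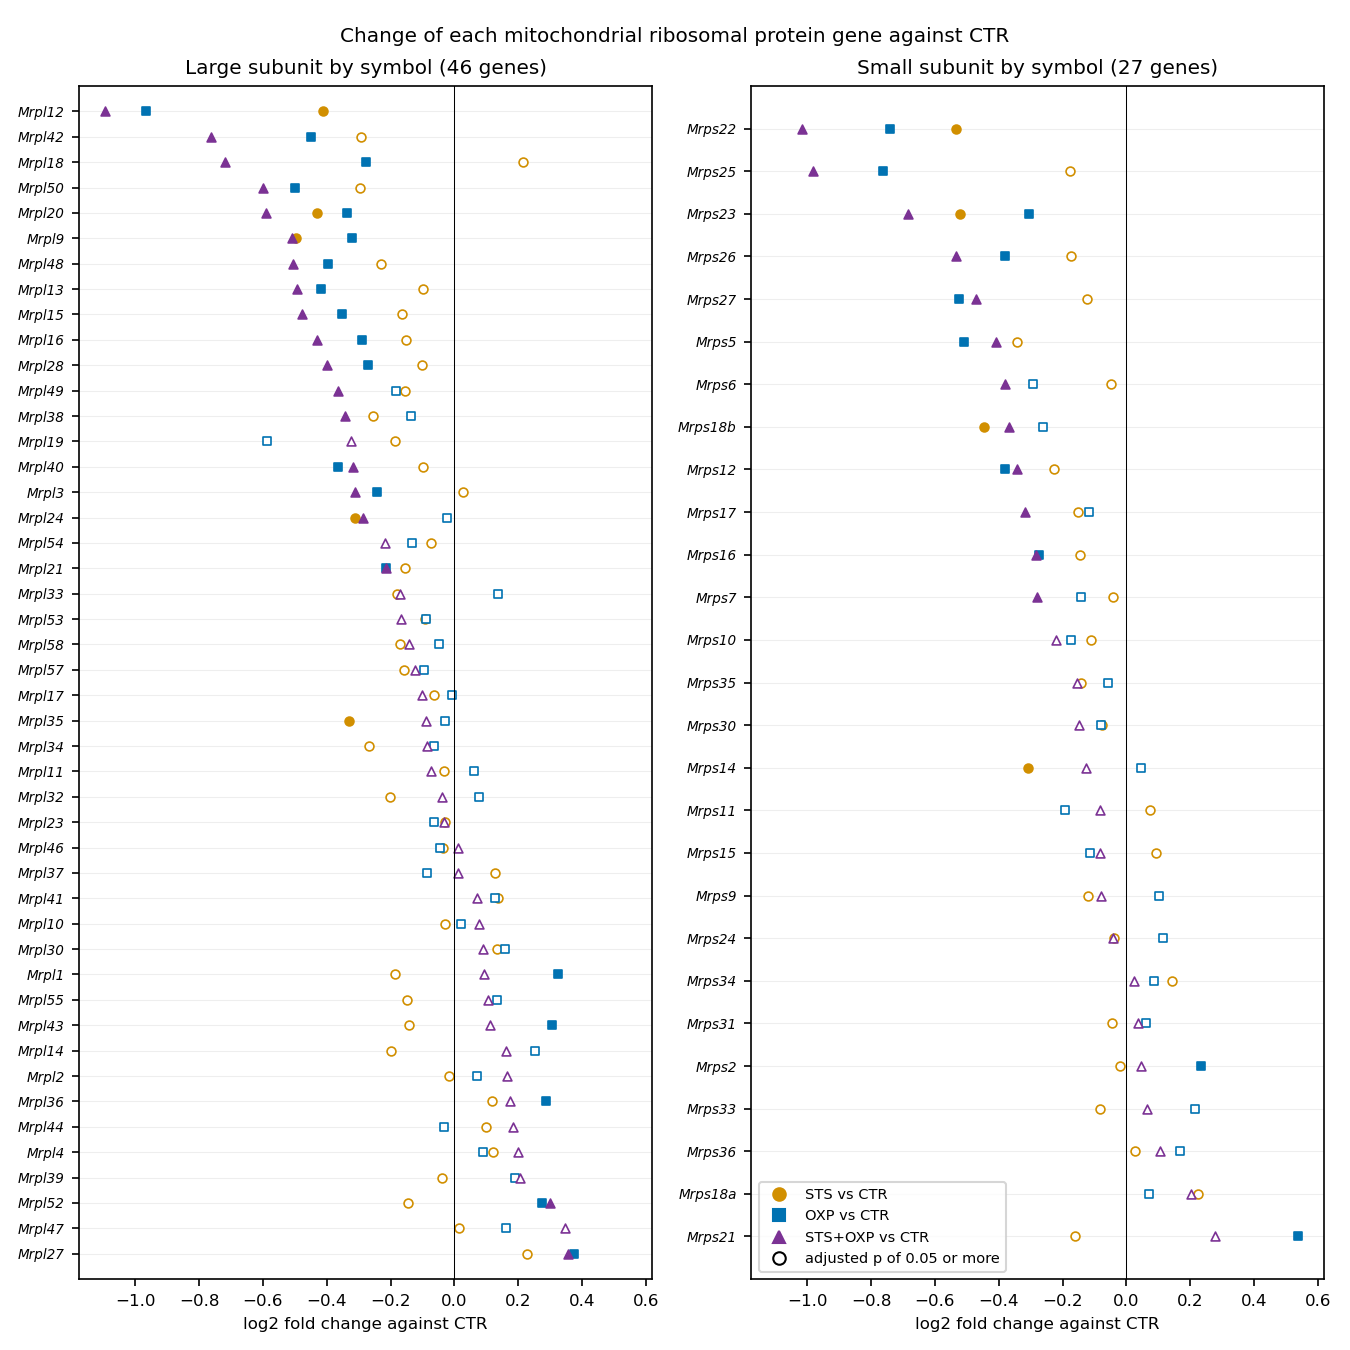
Each row is 1 of the 73 genes, with the log2 fold change against CTR on the x axis for STS (circles), OXP (squares) and STS+OXP (triangles), and filled symbols mark an adjusted p under 0.05. The left panel holds 46 large subunit genes and the right panel 27 small subunit genes. Mrpl12, at -1.09 in STS+OXP, lies farthest to the left, and Mrps21, at 0.54 in OXP, farthest to the right.

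Most changes were small. The median log2 fold change of the 73 genes was -0.12 for STS, -0.08 for OXP and -0.14 for STS+OXP, against -0.03, -0.01 and 0.00 over all genes. The point estimate lay below 0 for 58 of the 73 genes in STS (79.5%, against 59.2% of all genes), for 46 in OXP (63%, against 53.1%) and for 49 in STS+OXP (67.1%, against 49.9%). Of the 73 genes, 38 (52.1%) were called in at least 1 of the 3 comparisons, against 39.4% of all genes and 68% of those above the median signal. Of those 38, 22 were lower in both OXP and STS+OXP (30.1% of the 73, against 11.6% and 20.9%), 5 were lower in all 3 conditions (6.85%, against 4.09% and 7.5%), and 2 were higher in both OXP and STS+OXP (2.74%, against 13.9% and 25.9%). These comparisons share the CTR arrays, so their lists are not independent of each other.

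Mrpl12, the stalk protein of the large subunit that calls translation factors to the ribosome and that in human cells also binds the mitochondrial RNA polymerase, fell most in OXP and STS+OXP. Its gene lies on chromosome 11 (120484637 to 120488754, GRCm38). The signal was 8.68, 8.74 and 8.64 on the STS arrays, 8.03, 8.12 and 8.24 on the OXP arrays, 7.98, 8.14 and 7.89 on the STS+OXP arrays, and 9.25, 9.02 and 9.02 on the CTR arrays. All 9 treated arrays lay below all 3 CTR arrays, and all 6 arrays with OXP lay below the STS arrays. The log2 fold change was -0.41 under STS (SE 0.0894, adjusted p = 0.00602), -0.97 in OXP (adjusted p = 1.5e-06, 1.95-fold lower) and -1.09 in STS+OXP (adjusted p = 4.76e-07, 2.13-fold lower).

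Mrps22, Mrps25 and Mrps23 encode proteins of the small subunit that bacteria lack. Mrps22 (chromosome 9, 98588730 to 98601679) read 7.40, 7.35 and 7.32 in STS, 7.59, 6.88 and 6.98 in OXP, 6.75, 6.94 and 6.94 in STS+OXP, and 8.09, 7.83 and 7.76 in CTR. OXP replicate 1 lay 0.65 above the other 2 OXP arrays, and no treated array reached the CTR arrays. The change was -0.54 in STS (SE 0.15, adjusted p = 0.0256), -0.74 in OXP (adjusted p = 0.00148) and -1.02 in STS+OXP (adjusted p = 0.00011, 2.02-fold lower), and the call in STS was lost without any 1 STS array or CTR replicate 1, at an adjusted p of up to 0.121. Mrps25 (chromosome 6, 92169512 to 92184023) read 6.17, 6.08 and 5.97 in STS, 5.49, 5.60 and 5.36 in OXP, 5.11, 5.40 and 5.28 in STS+OXP, and 6.22, 6.38 and 6.14 in CTR. STS overlapped CTR (-0.18, not called), whereas both groups with OXP lay below all other arrays, at -0.76 in OXP (SE 0.097, adjusted p = 2.93e-05) and -0.98 in STS+OXP (adjusted p = 2.78e-06). A dimmer probe set of Mrps25 above the control probe sets had a mean signal of 3.97, against 5.77 for the one used. Its changes were smaller, at -0.20 for the drug alone and -0.40 for the combination. On it, OXP replicate 1 lay 0.51 above the other 2 OXP arrays. Mrps23 (chromosome 11, 88194106 to 88211507) read 6.30, 6.30 and 6.31 in STS, 6.49, 6.43 and 6.64 in OXP, 6.29, 6.00 and 6.13 in STS+OXP, and 6.81, 6.91 and 6.75 in CTR. Here STS lay below OXP, in contrast to Mrpl12 and Mrps25, with changes of -0.52 in STS (SE 0.0853, adjusted p = 0.000824), -0.31 in OXP (adjusted p = 0.0135) and -0.68 in STS+OXP (adjusted p = 2.46e-05). Another probe set of Mrps23, with a mean signal of 6.44 against 6.45, gave smaller changes of -0.30, -0.08 and -0.27 in the same order. The call of Mrps23 in OXP was lost without CTR replicate 2 (adjusted p = 0.0588), with averaged probe sets, with array quality weights, and without OXP replicates 1 and 2 together, where it was -0.19 (adjusted p = 0.272).

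Mrps21, the counterpart of bacterial S21, was the member with the largest rise. Its gene lies on chromosome 3 (95862634 to 95871514), and it read 7.72, 7.69 and 7.60 in STS, 8.60, 8.10 and 8.42 in OXP, 8.03, 8.26 and 8.04 in STS+OXP, and 7.90, 7.86 and 7.75 in CTR. The OXP and STS+OXP arrays lay above all CTR arrays, and the STS arrays below all of them. Only the OXP change was called, at 0.54 (SE 0.112, adjusted p = 0.00184), while STS was at -0.16 and STS+OXP at 0.28.

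Mrpl12, Mrps25, Mrps22 and Mrps21 had the largest called changes in OXP among the 73 genes, and the 150 bases before their transcription start are shown so that the letters of motifs known from genes of mitochondrial proteins can be seen in place. The sequences are those of RefSeq for GRCm38.p6, which comes from the strain C57BL/6J and not from BALB/c, the origin of CT26, and run 5′ to 3′ on the strand of the gene. Capitals mark a match to CGCNTGCG, a core of the site of NRF1, to CCGGAAG, a site of ETS factors such as GABPA, to AAGATGGC, a site of YY1, or to CACGTG, the E-box bound by MYC, each searched on both strands. The positions are chr11:120484487-120484636 on the plus strand for Mrpl12, and on the minus strand chr6:92184024-92184173 for Mrps25, chr9:98601680-98601829 for Mrps22 and chr3:95871515-95871664 for Mrps21.
Mrpl12: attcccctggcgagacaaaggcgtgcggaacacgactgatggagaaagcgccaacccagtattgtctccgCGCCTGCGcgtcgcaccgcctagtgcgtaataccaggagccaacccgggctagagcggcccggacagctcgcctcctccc
Mrps25: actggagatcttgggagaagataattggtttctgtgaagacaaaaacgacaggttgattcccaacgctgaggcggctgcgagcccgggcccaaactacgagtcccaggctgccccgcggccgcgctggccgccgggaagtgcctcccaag
Mrps22: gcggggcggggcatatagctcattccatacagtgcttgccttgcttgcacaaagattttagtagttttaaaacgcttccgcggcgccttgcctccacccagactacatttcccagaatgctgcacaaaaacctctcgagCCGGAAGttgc
Mrps21: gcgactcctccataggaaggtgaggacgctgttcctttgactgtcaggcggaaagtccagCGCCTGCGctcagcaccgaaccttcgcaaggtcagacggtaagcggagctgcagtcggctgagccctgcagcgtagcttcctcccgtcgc
The NRF1 letters began 80 bases before the start in Mrpl12, which fell, and 90 bases before it in Mrps21, which rose. The ETS letters began 11 bases before the start in Mrps22, and the Mrps25 stretch held none of the 4 motifs. A match is a run of letters and not a measured binding site.

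RefSeq promoters, taken as 250 bases before to 50 after the start, were found for 65 of the 73 genes. At least 1 of the 4 motifs occurred for 42 of these 65 genes (64.6%), against 25.3% of the 27025 genes with a promoter. The ETS letters were in 32.4% of the 71 promoters of these genes, against 8.86% of all 32851 promoters. The NRF1 letters were in 25.4%, against 8.21%, the YY1 letters were in 16.9%, against 2.75%, and the E-box was in 8.45%, against 7.15%. No motif stood with 1 direction of change alone: 1 or more occurred for 14 of 20 genes called lower in OXP, for 5 of 7 called higher and for 23 of 38 not called. The ETS letters occurred for 10 of those 20, 4 of those 7 and 9 of those 38 genes, the NRF1 letters for 4, 2 and 12, the YY1 letters for 3, 1 and 8, and the E-box for 1, 1 and 2.

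Under STS alone, the 9 genes called lower were 5 of the large and 4 of the small subunit. Mrps22 and Mrps23 were followed by Mrpl9, the counterpart of a bacterial protein at the base of the L1 stalk. Mrpl9 read 7.02, 7.28 and 7.25 in STS, 7.45, 7.31 and 7.31 in OXP, 7.21, 7.07 and 7.24 in STS+OXP, and 7.71, 7.71 and 7.62 in CTR. All 9 treated arrays lay below CTR, at -0.50 in STS (SE 0.0847, adjusted p = 0.00113), -0.32 in OXP and -0.51 in STS+OXP. Mrps18b, 1 of the mammalian relatives of bacterial S18, was at -0.44 in STS (SE 0.0968, adjusted p = 0.00601) and at -0.37 in STS+OXP (adjusted p = 0.00936), and in OXP it was not called (-0.26). Mrpl20, whose bacterial counterpart is needed to assemble the large subunit, was called in all 3, at -0.43 under STS, -0.34 under OXP and -0.59 under STS+OXP, but its OXP call was lost without OXP replicate 2 or CTR replicate 1, and in 3 other settings (adjusted p up to 0.161). Mrpl12, Mrpl35, Mrpl24 and Mrps14 made up the 9. Of these calls in STS, 5 held whichever array was left out (Mrpl9, Mrpl12, Mrpl20, Mrps18b and Mrps23), and those of Mrpl24, Mrpl35 and Mrps14 were each lost without STS replicate 2, STS replicate 3 or CTR replicate 1. The call of Mrpl35 was also lost with averaged and with specific probe sets (adjusted p up to 0.908), and that of Mrps14 with averaged probe sets (adjusted p = 0.604).

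In the OXP group, 14 genes of the large and 8 of the small subunit were lower, and 5 and 2 were higher. Mrpl50, a mitochondria-specific protein of the large subunit, read 6.54, 6.48 and 6.44 in STS, 6.48, 6.21 and 6.15 in OXP, 6.26, 6.02 and 6.26 in STS+OXP, and 6.80, 6.85 and 6.70 in CTR. It lay below CTR on every treated array and was called in OXP (-0.50, SE 0.0963, adjusted p = 0.00104) and in STS+OXP (-0.60). Mrps27, a small subunit protein with pentatricopeptide repeats that binds RNA, read 4.40, 4.26 and 4.23 in OXP, 4.36, 4.27 and 4.42 in STS+OXP, and 4.80, 4.88 and 4.79 in CTR. Its arrays with OXP lay below those without, at -0.52 in OXP (SE 0.0724, adjusted p = 6.38e-05) and -0.47 in STS+OXP (adjusted p = 0.000156).

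Among the 7 rises in OXP, Mrpl27 stands next to the site of peptide bond formation, Mrpl1 forms the L1 stalk and Mrpl43 is mitochondria-specific. Mrpl27 read 9.24, 9.24 and 9.20 in STS, 9.28, 9.47 and 9.37 in OXP, 9.32, 9.34 and 9.40 in STS+OXP, and 9.20, 8.85 and 8.95 in CTR. All OXP and STS+OXP arrays lay above CTR, of which replicate 1 was the highest, and the change was 0.38 in OXP (SE 0.0883, adjusted p = 0.00445) and 0.36 in STS+OXP (adjusted p = 0.00639). Mrpl43 rose in OXP (0.31, adjusted p = 0.00343), with 8.03, 7.93 and 8.01 in OXP against 7.68, 7.69 and 7.69 in CTR. Mrpl1 was called at 0.33 (adjusted p = 0.0359), although OXP replicate 3, at 6.72, lay below CTR replicate 1, at 6.79, and the call was lost without either of OXP replicates 1 and 2. Mrps2, the counterpart of bacterial S2, was called at 0.23 (adjusted p = 0.0305), but its second probe set was at -0.35, and the average of both was at -0.06 (adjusted p = 0.508). Mrpl52 was at 0.27 in OXP and 0.30 in STS+OXP, and Mrpl36 at 0.29 in OXP. The OXP call of Mrpl52 was lost without any of 9 single arrays, OXP replicates 1 and 3 among them, its STS+OXP call without any of 4 (adjusted p up to 0.135), and the OXP call of Mrpl36 without OXP replicate 3, CTR replicate 1 or CTR replicate 3, and without OXP replicates 1 and 2 together.

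Of the 29 genes called in OXP, 17 held whichever array was left out. Without OXP replicate 1, 23 genes were lower and 4 higher (14.9% and 17.3% of all genes), without OXP replicate 2 there were 17 and 8 (13.1% and 17.8%), without OXP replicate 3 there were 20 and 4 (13.3% and 17.4%), and without replicates 1 and 2 there were 13 and 5 (13% and 15.8%), against 22 and 7 with all arrays. The percentages for these fits are over all genes and not over the brighter ones. Of the genes above the median signal, 23.6% were lower and 31.7% higher in OXP with all arrays. Without OXP replicate 1, the calls of Mrpl1, Mrpl21, Mrpl52 and Mrps2 were lost. Without OXP replicate 2, those of Mrpl1, Mrpl3, Mrpl16, Mrpl18, Mrpl20, Mrpl21, Mrpl28 and Mrps16 were. Without both, 14 of the 29 were lost, among them Mrps5, Mrps12, Mrps23, Mrpl18, Mrpl20, Mrpl36, Mrpl40 and Mrpl52, while those of Mrpl12, Mrps22, Mrps25, Mrps27, Mrps21 and 10 others held. Mrpl19, a large subunit protein, read 5.59, 6.87 and 6.72 in OXP, against 6.97, 6.95 and 7.02 in CTR, and OXP replicate 1 lay far below all other arrays. Its OXP change was -0.59 with all arrays (adjusted p = 0.0746) and -0.18 without OXP replicate 1 (adjusted p = 0.085), neither of them called, whereas it was called at -0.83 without OXP replicate 2 (adjusted p = 0.0098) and at -0.26 without both (adjusted p = 0.0477). Its STS+OXP change, -0.32, was called without OXP replicate 1 (adjusted p = 0.00162).

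STS+OXP gave the largest number of falls, with 17 genes of the large and 12 of the small subunit. Mrpl42, a mitochondria-specific protein of the large subunit, read 8.52, 8.49 and 8.35 in STS, 8.49, 8.10 and 8.30 in OXP, 8.01, 7.98 and 7.96 in STS+OXP, and 8.87, 8.75 and 8.61 in CTR. The STS+OXP arrays lay below all other arrays, at -0.76 against CTR (SE 0.0996, adjusted p = 3.84e-05), and OXP was at -0.45 (adjusted p = 0.00296). Mrps26, a small subunit protein that bacteria lack, read 8.57, 8.64 and 8.69 in STS, 8.47, 8.34 and 8.47 in OXP, 8.26, 8.27 and 8.29 in STS+OXP, and 8.86, 8.75 and 8.81 in CTR. Its 4 groups did not overlap, with STS+OXP lowest at -0.54 (SE 0.0669, adjusted p = 2.54e-05). Mrps17, the counterpart of bacterial S17, read 9.08, 9.09 and 9.09 in STS, 9.15, 9.05 and 9.15 in OXP, 8.92, 8.91 and 8.94 in STS+OXP, and 9.33, 9.20 and 9.18 in CTR. Every treated array lay below CTR, and only STS+OXP was called (-0.32, SE 0.0658, adjusted p = 0.00185). Mrps6, the counterpart of bacterial S6, read 9.35, 9.25 and 9.24 in STS, 8.81, 9.01 and 9.28 in OXP, 8.90, 9.03 and 8.92 in STS+OXP, and 9.45, 9.28 and 9.25 in CTR. Its STS+OXP arrays lay below CTR (-0.38, adjusted p = 0.0134), a call lost without STS+OXP replicate 1 or CTR replicate 1, whereas OXP overlapped CTR (-0.29, adjusted p = 0.0507). Mrpl30 and Mrpl37, of the large subunit, were called in none of the 3 groups, with changes of 0.09 to 0.16 and -0.09 to 0.13. Of the 31 calls in STS+OXP, 23 held whichever array was left out.

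**Figure D2:**
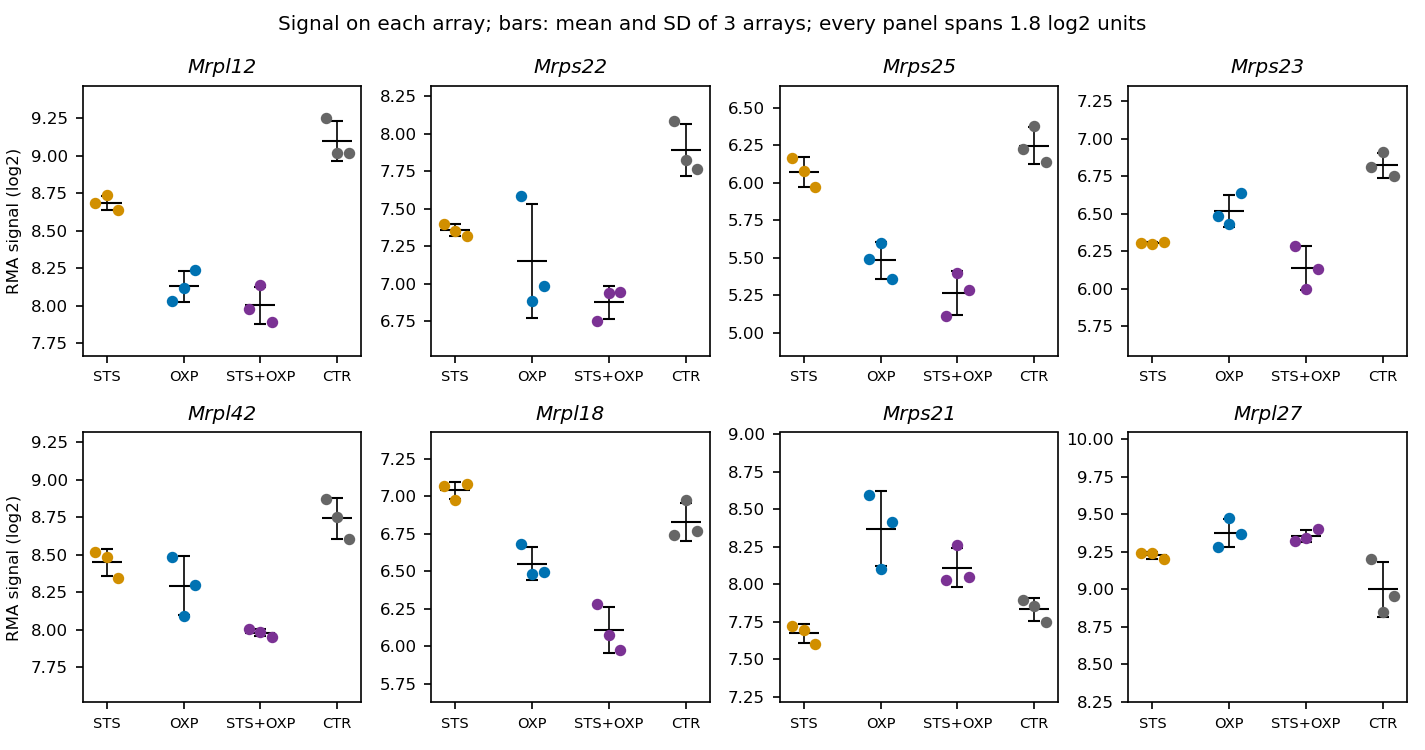
Points are the RMA signal (log2) of 8 named genes on each of the 12 arrays, grouped as STS, OXP, STS+OXP and CTR, with the mean and SD of 3 arrays. Mrpl12, Mrps22, Mrps25, Mrps23 and Mrpl42 lie below CTR in STS+OXP without overlap, Mrps21 and Mrpl27 lie above, and Mrpl18 is lowest in STS+OXP and highest in STS.

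Mrpl18 alone among the 73 genes was called for a response to starvation that differed with the drug. It is the counterpart of the bacterial protein that binds 5S ribosomal RNA, and its gene lies on chromosome 17 (12911345 to 12917787). It read 7.07, 6.98 and 7.08 in STS, 6.68, 6.48 and 6.49 in OXP, 6.28, 6.07 and 5.97 in STS+OXP, and 6.74, 6.97 and 6.77 in CTR. The STS arrays lay above all CTR arrays, though without a call (0.21, adjusted p = 0.16), the OXP arrays lay below them, at -0.28 (SE 0.0947, adjusted p = 0.0401, a call lost without any of 8 single arrays, OXP replicates 2 and 3 among them, at an adjusted p of up to 0.164), and the STS+OXP arrays lay below every other array, at -0.72 against CTR (adjusted p = 4.17e-05) and -0.93 against STS (adjusted p = 7.08e-06). The interaction, which is the effect of STS in the presence of OXP minus that without OXP, was -0.66 (SE 0.134, adjusted p = 0.00798). Over all genes, 5.76% were called below 0 for the interaction and 2.53% above 0, and 1 of the 73 genes was. At an unadjusted p under 0.05, 1 of the 73 lay below 0 and 4 above, against 12.1% and 9.03% of all genes. The next by adjusted p were Mrpl9 at 0.31 (adjusted p = 0.148), Mrps5, the counterpart of bacterial S5, at 0.44 (adjusted p = 0.155) and Mrps18b at 0.34 (adjusted p = 0.168).

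When STS+OXP was set against OXP alone, 0 of the 73 genes were called, and of all genes 0.00585% were called higher and 0.00585% lower. The estimates leaned downward: 54 of the 73 genes (74%) lay below 0, against 50.3% of all genes and 57.1% of those above the median signal, with a median of -0.09. At an unadjusted p under 0.05, 14 genes were lower and 0 higher (8.03% and 4.6% of all genes). Among the 8548 genes above the median signal, 1208 were lower and 516 higher at that threshold. The nearest to a call were Mrpl18 at -0.44 (SE 0.0947, adjusted p = 0.251), Mrps23 at -0.38 (SE 0.0853, adjusted p = 0.257) and Mrpl42 at -0.31 (SE 0.0996, adjusted p = 0.257), whose STS+OXP arrays all lay below the OXP arrays, and Mrpl33, at -0.31 (adjusted p = 0.261), whose groups overlapped. Without OXP replicate 2, 6 genes were called lower (Mrpl33, Mrpl18, Mrps23, Mrpl42, Mrps21 and Mrpl24), in a fit that called 4.44% of all genes lower. Without OXP replicate 1 there were 0 (0.0117% of all genes), and without both there was 1, Mrps23 at -0.50 (adjusted p = 0.0256), where 2.06% of all genes were lower.

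Adding OXP to STS changed 20 of the 73 genes, 16 lower (21.9%) and 4 higher (5.48%). Of all genes 11.2% were lower and 10.8% higher, and of those above the median signal 20.4% and 19.1%. Against these brighter genes, the share called lower was close and the share called higher was smaller. The lower genes were led by Mrpl18, Mrps25 at -0.81 (SE 0.097, adjusted p = 3.23e-05), Mrpl12 at -0.68 (adjusted p = 6.99e-05) and Mrps26 at -0.36 (adjusted p = 0.00122). The 4 higher genes were Mrpl52 and Mrps21, each at 0.44, Mrpl14 at 0.36 and Mrpl43 at 0.25. Mrpl52, Mrps21 and Mrpl43 also belonged to the rises in OXP against CTR. The calls of Mrps21, Mrpl14 and Mrpl43 here were lost without STS replicate 3 or STS+OXP replicate 2 (adjusted p up to 0.0593, 0.0822 and 0.08).

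By symbol, both subunits held falls in each comparison with CTR. In STS, 5 of 46 large and 4 of 27 small subunit genes were lower (10.9% and 14.8%), with medians of -0.14 and -0.12. In OXP, 14 large and 8 small subunit genes were lower (30.4% and 29.6%), with medians of -0.06 and -0.12. In STS+OXP, 17 large and 12 small subunit genes were lower (37% and 44.4%), with medians of -0.11 and -0.16. The 2 rises in STS+OXP, Mrpl27 and Mrpl52, belong to the large subunit. Divided by the place of the protein in the structure, the 24 small subunit genes had a median of -0.25 in STS+OXP with 12 lower, and the 48 large subunit genes one of -0.11 with 17 lower. Whether the subunits differ was not tested, since genes are not replicates of a condition. The genes whose symbol and place disagree did not change by a call: Mrps30 was at -0.08 for STS, -0.08 for OXP and -0.15 for STS+OXP, and Mrps18a at 0.22, 0.07 and 0.20. Mrps36 was at 0.03, 0.17 and 0.10, also with no call.

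By origin, the 10 small subunit genes classed as mitochondria-specific included Mrps22, Mrps23, Mrps25, Mrps26 and Mrps27, and 6 of the 10 were lower in STS+OXP, with a median of -0.42. Of the 14 small subunit genes with a bacterial counterpart, 6 were lower in STS+OXP, with a median of -0.17. In the large subunit, 6 of 19 mitochondria-specific genes and 11 of 29 with a bacterial counterpart were lower in STS+OXP. Over both subunits, the classes were close, with 41.4% of 29 mitochondria-specific genes and 39.5% of 43 with a bacterial counterpart lower. Of all genes 14.2% were lower in STS+OXP, and of those above the median signal 25.2%. The division follows the names of the structure, which count Mrps18b and Mrps18a as mitochondria-specific although both are related to bacterial S18. With Mrps18b moved, 5 of 9 mitochondria-specific genes (median -0.47) and 7 of 15 with a bacterial counterpart (median -0.22) were lower in the small subunit. This is a description of few genes with no test.

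**Figure D3:**
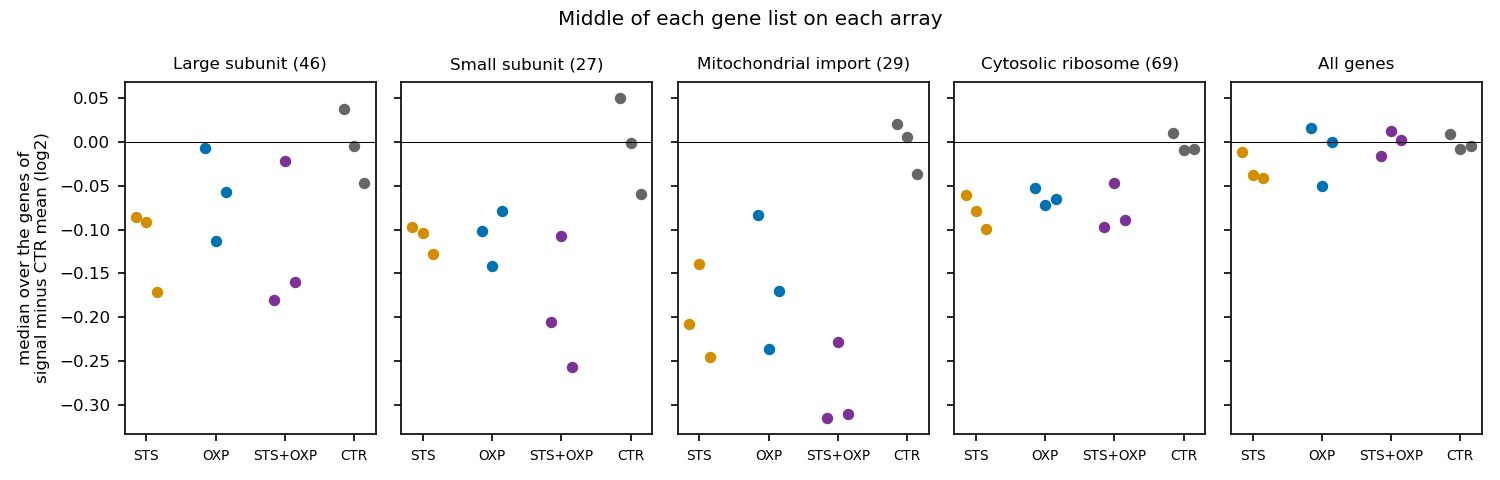
Each point is 1 array, placed by the median over the genes of a list of the signal minus the CTR mean (log2), for STS, OXP, STS+OXP and CTR. The small subunit, mitochondrial import and the cytosolic ribosome lie below the CTR arrays on all 9 treated arrays, and in the large subunit OXP replicate 1 and STS+OXP replicate 2 lie within the range of CTR. The median over all genes also lies below CTR on the STS arrays.

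The median over the small subunit genes lay at -0.13 to -0.10 on the STS arrays, -0.14 to -0.08 on the OXP arrays and -0.26 to -0.11 on the STS+OXP arrays, against -0.06 to 0.05 on the CTR arrays. All 9 treated arrays lay below CTR. The same held for the median over the genes of mitochondrial protein import. It lay at -0.25 to -0.14 in STS, -0.24 to -0.08 in OXP and -0.32 to -0.23 in STS+OXP, against -0.04 to 0.02 in CTR. Over all genes, the median was -0.041 to -0.0117 on the STS arrays, also below the CTR arrays (-0.0076 to 0.0095). The median over the large subunit genes lay at -0.17 to -0.09, -0.11 to -0.01 and -0.18 to -0.02, against -0.05 to 0.04 in CTR, where OXP replicate 1 and STS+OXP replicate 2 overlapped CTR. The cytosolic ribosome, measured by 69 genes, had medians of -0.08 under STS, -0.06 under OXP and -0.08 under STS+OXP, with 5, 15 and 16 genes lower and 0, 2 and 2 higher. The shares lower were 7.25%, 21.7% and 23.2%, against 6.74%, 13.9% and 14.2% of all genes. Among the genes above the median signal they were 11.6%, 23.6% and 25.2%. Its largest changes were Rpl22l1, a paralogue of Rpl22, at -2.31 in both OXP and STS+OXP, Rpl14 at -0.67 in OXP, and Rps27l, a target of p53, at 0.62 in OXP.

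The 4 further mitochondrial ribosomal proteins whose symbols do not begin with Mrp moved down as well, and Aurkaip1 was not analysed here. Chchd1, a small subunit protein, read 8.23, 8.21 and 8.11 in STS, 7.90, 7.73 and 7.76 in OXP, 7.62, 7.67 and 7.51 in STS+OXP, and 8.74, 8.46 and 8.38 in CTR. Each treated group lay below CTR, at -0.34 in STS (SE 0.0948, adjusted p = 0.0261), -0.73 in OXP (adjusted p = 3.71e-05) and -0.92 in STS+OXP (adjusted p = 4.09e-06). Dap3, the GTP-binding protein of the small subunit, was at -0.30, -0.40 and -0.51, with a call in each. Gadd45gip1, a large subunit protein, was called in all 3 at -0.31, -0.27 and -0.33, and Ptcd3, a pentatricopeptide repeat protein of the small subunit, in STS+OXP alone (-0.44, adjusted p = 0.00682).

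Genes that build or serve the mitochondrial ribosome had calls in both directions. Of all genes, 9.75% were called higher and 6.74% lower in STS, 17.5% and 13.9% in OXP, and 16.4% and 14.2% in STS+OXP. Of those above the median signal, the shares were 18.2% and 11.6%, 31.7% and 23.6%, and 29.5% and 25.2%. Of 23 genes of mitochondrial ribosome assembly and rRNA modification, 0 were higher and 3 lower (13%) in STS, 4 and 6 in OXP (17.4% and 26.1%), and 3 and 8 in STS+OXP (13% and 34.8%). Noa1, a GTPase of ribosome assembly, fell by 0.90 in OXP and 1.00 in STS+OXP, Rcc1l by 0.93 in OXP, and Tfb1m, which methylates the small subunit rRNA, by 0.81 in OXP. Of 11 translation factors, 2 were higher and 2 lower in OXP: Mtfmt, which formylates the initiator tRNA, at 0.70, Mtif2, the initiation factor, at 0.36, and the elongation factors Tsfm at -0.49 and Gfm1 at -0.41. In STS 0 of the 11 were called (1 was higher and 2 lower at an unadjusted p under 0.05), and in STS+OXP 1 was higher and 4 lower. Of 18 mitochondrial aminoacyl-tRNA synthetases and partners, 1 was higher and 4 lower in STS, and 1 and 6 in both OXP and STS+OXP, with Nars2 at -0.67, Ears2 at -0.63 and Hars2 at 0.61 in OXP.

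Of 10 genes that transcribe or copy mitochondrial DNA, 0 were higher and 2 lower (20%) in STS. In OXP 3 and 3 were (30% each), and in STS+OXP 1 and 4 (10% and 40%), beside the shares over all genes given above. Mterf2, of the family of transcription termination factors, rose by 1.32 in OXP, Polrmt, the RNA polymerase, was at 0.44, and Tfb2m, which opens its promoters, at -0.47. Of 8 nuclear regulators of mitochondrial genes, Pprc1 and Ppargc1b, both coactivators of the PGC-1 family, and Myc fell in OXP, by 1.22, 0.49 and 0.96, and Yy1 rose by 0.29. Nrf1 and Gabpa, whose site letters are named above, were at -0.09 and -0.15 in OXP with no call, and Gabpa was at -0.23 in STS+OXP (adjusted p = 0.0387). Of 29 genes of mitochondrial protein import, 10 were lower and 0 higher in STS, 12 and 4 in OXP, and 16 and 0 in STS+OXP, with Timm50 at -1.16, Timm9 at -1.04 and Tomm5 at -0.92 in OXP. The share of import genes called lower was 34.5% under STS, 41.4% under OXP and 55.2% under the combination.

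**Figure D4:**
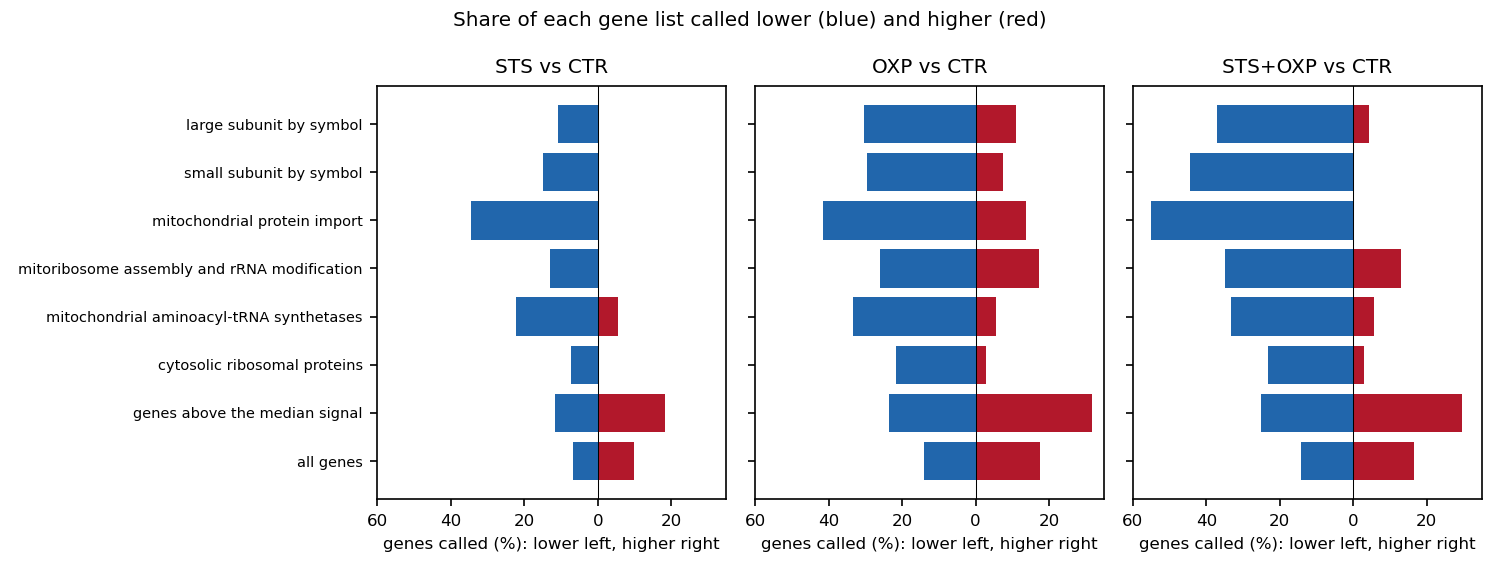
Bars show the percentage of each gene list called lower (left, blue) and higher (right, red) against CTR in STS, OXP and STS+OXP, for the 2 subunits, 4 related lists, the genes above the median signal and all genes. The share of genes called higher is smaller in both subunits than among the genes above the median signal in all 3 comparisons.

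Several probe sets read 38 of the 73 genes. Of 20 other probe sets above the control probe sets that belong to genes called in OXP, 19 gave an OXP change of the same sign as the probe set used, the exception being that of Mrps2. In STS+OXP, the other probe set of Mrpl21 was at 0.09, against -0.21 for the one used. The STS+OXP call of Mrpl21 was lost with averaged and with specific probe sets, among other settings (adjusted p up to 0.741). For 25 genes the probe set used is marked by its maker as matching more than 1 transcript. The mark of Mrpl19, Mrpl37, Mrpl38, Mrps12 and Mrps24 allows transcripts of other genes, and that of the remainder alternative transcripts of the same gene.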

How the data were processed

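RNA from CT26 cells, 3 arrays in each of the groups STS, OXP, STS+OXP and CTR, had been hybridized to Affymetrix mouse arrays. The deposited values are log2 signals of 45141 probe sets that the authors computed with RMA, under R 3.02 per the submitters' notes. RMA corrects the background, sets the arrays to 1 distribution and summarises probes, so a shift of all genes together is removed, and single probes were not used here. Every value column belonged to 1 of the 12 arrays.

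Only probe sets with 1 symbol in the platform annotation (28898) were used, and each of 17097 genes took the one with the highest mean. A model with 4 group means was fitted to all genes and arrays with limma 3.58.1 in R 4.3.3 (8 residual degrees of freedom, a prior of 5.05), and two-sided p-values were adjusted over all genes by Benjamini-Hochberg. A gene was at background where its group mean was no higher than the brightest of 22 control probe sets on those arrays. The fit was also run on simulated data with 200 changed genes, and the outcome is not given here. The number of arrays limits the precision. Motifs were searched with Python 3.11.15 in promoters of RefSeq, GRCm38.p6.

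The 73 genes and all lists were chosen with earlier results of these data known. Genes were named as the 3 largest called rises and falls of each subunit against CTR, the 4 smallest adjusted p in the other comparisons, the 2 highest and 2 lowest signals of each subunit, genes whose symbol does not tell the place, and 3 called genes of each related list. Other genes named were chosen after their values were seen. Alternatives were array quality weights, cyclic loess, median centring, eBayes with a trend (robust), averaged probe sets, only specific probe sets, only the brighter genes, only the groups compared, the replicate number as a block, the unequal-variance test of the study's methods, and each array left out. The fit without OXP replicates 1 and 2 together was added after seeing the data.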

Additional observations from a re-analysis of the deposited data

Results flagged for a closer look

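The response of Mrpl18 to starvation differed with the drug by the test of the interaction, which was -0.66 on the log2 scale (SE 0.134, adjusted p = 0.00798 by limma over all genes). The effect of STS was -0.44 with OXP and 0.21 without it. The interaction kept its sign and its call in every alternative fit that included it, between -0.74 and -0.58 and at an adjusted p of 0.00461 to 0.0275. It was not run with only the groups compared or by the unequal-variance test.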

How the results depend on the processing

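Directions held widely and counts near the threshold moved. Of the calls made with all arrays, 5 of 9 in STS, 17 of 29 in OXP, 23 of 31 in STS+OXP (each against CTR), 9 of 20 in STS+OXP against STS and 1 of 1 in the interaction held whichever array was left out. With 1 array left out in turn, the genes called lower numbered 5 to 13 in STS, 17 to 23 in OXP, 24 to 30 in STS+OXP, 0 to 6 in STS+OXP against OXP and 8 to 16 in STS+OXP against STS, and those called higher 0 to 1, 3 to 8, 1 to 4, 0 and 1 to 7, with 0 to 1 higher and 1 lower in the interaction. Over all genes, those fits called lower 4.19% to 8.9% in STS, 12.2% to 14.9% in OXP and 12.4% to 15.8% in STS+OXP. Against OXP and against STS, STS+OXP had 0% to 4.44% and 9.01% to 13% of all genes lower. Called higher were 6.88% to 11.7%, 15.1% to 17.8%, 14% to 18.5%, 0% to 2.38% and 7.77% to 13.5%, in the same order. In the interaction, 1.59% to 3.55% were higher and 3.95% to 7.29% lower. The lowest count in STS came without STS replicate 2, STS replicate 3 or CTR replicate 1, at 5 each, and the counts of STS+OXP against STS were 8, 9 and 10 lower without STS replicates 1, 2 and 3 and 10 without STS+OXP replicate 2, with 1 higher without STS replicate 3 or STS+OXP replicate 2 and 7 without OXP replicate 1. Genes higher in OXP numbered 4 without OXP replicate 1, OXP replicate 3 or CTR replicate 2 and 3 without CTR replicate 3. Genes higher in STS+OXP numbered 4 without OXP replicate 1, OXP replicate 2 or STS+OXP replicate 3, and 1 without STS+OXP replicate 1, STS+OXP replicate 2 or CTR replicate 3. In STS, 1 gene was higher without CTR replicate 1, and in the interaction 1 without OXP replicate 1 or OXP replicate 3. The median of the small subunit in STS+OXP was -0.23 to -0.16 with 1 array left out, the lowest without CTR replicate 3.

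Without OXP replicates 1 and 2 together, a fit chosen after seeing the data, 14 genes were lower in STS and 13 in OXP, 5 were higher in STS+OXP, 8 were higher in STS+OXP against STS, and 1 was lower in STS+OXP against OXP. Cyclic loess gave 14 lower in STS and 3 higher in OXP, against 7.35% and 15.9% of all genes. Its medians were -0.13 for the large subunit in OXP and -0.19 and -0.21 for the small subunit in OXP and STS+OXP. In the interaction they were 0.12 and 0.0818 for the large and small subunit. The average of all probe sets gave 4 higher in OXP and 1 in STS+OXP, against 16.1% and 15.4% of all genes. It turned Mrps2 in OXP to -0.0561 (adjusted p = 0.508). Specific probe sets, which left 59 genes, gave 4 lower in STS, against 5.99% of all genes. They gave 18 lower and 1 higher in STS+OXP, against 12.9% and 14.7%, and a median of -0.0803 for the large subunit in STS. Array quality weights gave 17 lower and 2 higher in STS, where 12.1% and 13.6% of all genes were. They gave 4 higher in OXP (16.7% of all genes), 4 in STS+OXP (20.1%) and 9 in STS+OXP against STS (16.9%). With only the groups compared, 14 were lower and 1 higher in STS, against 9.69% and 12.4% of all genes. There were 3 higher in OXP (13.9% of all genes), 4 in STS+OXP (18.4%) and 8 in STS+OXP against STS (15.8%). The test with unequal variances named in the methods gave, unadjusted, 20 lower and 1 higher in STS, against 11.9% and 12% of all genes. It gave 3 higher in OXP (13.4% of all genes), 3 lower in STS+OXP against OXP (1.56%) and 9 higher in STS+OXP against STS (15.9%). After Benjamini-Hochberg it gave 1 lower in STS (1.64% of all genes) and 4 lower and 0 higher in OXP (2.71% and 3.33%). It gave 17 lower and 0 higher in STS+OXP (8.93% and 9.58%), and 9 lower and 1 higher in STS+OXP against STS (6.5% and 6.18%). The cause of these differences was not tested.

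The replicate numbers of the labels did not pair the arrays: over 18 pairs with the same number the correlations of the deviations from the group means were -0.199 to 0.102, 1 was over 0.1, and 2 of 12 arrays correlated best with their own number. With the replicate number as a block, 11 genes were lower in STS, 23 in OXP, 30 in STS+OXP and 14 in STS+OXP against STS, and counts of higher genes did not move. With 3 arrays a group, small changes may be missed, and a p that misses the threshold does not show that a gene did not change. The signal of Mrpl47, no higher than the control probe sets, says nothing of its direction.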
